A study of Mus musculus with 6 samples.

Results

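Transcripts of 40 plasma protein genes were followed in RNA-seq libraries of primary mouse hepatic stellate cells. The genes were taken by symbol from the deposited table of raw counts, where all 40 were found among 22905 rows. They encode apolipoproteins, fibrinogen chains, clotting factors and their inhibitors, and carriers of the blood. Hepatocytes make nearly all of these proteins and secrete them. Stellate cells, a separate liver cell type, store vitamin A and lay down scar matrix. Several are acute-phase genes, whose output in the liver rises (fibrinogen, hemopexin) or falls (albumin, transthyretin) during inflammation.

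The 6 libraries came from mice of the genotype BucheKI/KI-Hep, all treated with CCl4, a toxin that is activated in hepatocytes and kills them. The group named PBS and the group named DOX had 3 libraries each. The series states that BUCHE, butyrylcholinesterase, was over-expressed in hepatocytes and that stellate cells were then isolated. The age and sex of the mice, the doses, the promoter behind the knock-in, the number of animals per library and the isolation method are facts not given in the sources used here. The labels do not say that replicates came from separate animals, and the p-values then reflect only how these libraries vary, which may be technical. Groups without CCl4, or with DOX but without the knock-in, were not analysed here.

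Total counts were between 36220282 and 37707364 per library, and levels are given in CPM, which are counts relative to the TMM-scaled library total. The upper limit for a count of 0, taken as 3 reads, was 0.0758 to 0.0878 CPM. That limit covers counting error only. Bche, the gene targeted by the knock-in, had 8, 26 and 14 counts in PBS replicates 1, 2 and 3 and 1225, 582 and 3639 counts in DOX replicates 1, 2 and 3. Markers of the labelled cell type were present. The 17 stellate cell markers, led by Dcn, Ecm1 and Hgf, summed to between 648 and 1464 CPM in PBS and between 793 and 1239 CPM in DOX, with none at 0 in all libraries. Gfap was at 0 in PBS replicate 1 and DOX replicate 2. The 16 endothelial markers summed to between 6239 and 7419.9 CPM in PBS and between 5552 and 6769 CPM in DOX, lowest in DOX replicate 3, and 2 of them fell by edgeR (Tek and Ptprb). The 16 macrophage markers summed to between 4443 and 6825 CPM in PBS and between 8166 and 15099.9 CPM in DOX. In every library the endothelial and the macrophage sums were each above the sum of the stellate cell markers. The lymphocyte markers summed to between 92 and 175 CPM in PBS and between 280.1 and 402 CPM in DOX, and 4 of the 8 tested rose (Ptprc, Cd4, Gzma and Nkg7). The cholangiocyte markers summed to between 299 and 655 CPM in PBS and between 512 and 645 CPM in DOX, and 1 of the 7 tested rose (Epcam). Over all genes tested, edgeR called 4.38% higher and 2.04% lower in DOX. The part of these other cell types in the plasma protein results was not tested.

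Plasma protein transcripts were detected in every library, and their amount differed more between DOX libraries than between the groups. Summed over the 40 genes they stood at 572, 668 and 701 CPM in PBS replicates 1, 2 and 3. The DOX libraries held 1524, 730.4 and 5067 CPM in replicate order. PBS averaged 647 ± 67.3 CPM (SD, n = 3), while DOX averaged 2440.5 ± 2309 CPM (SD, n = 3). DOX replicate 3 held 6.94 times the sum of DOX replicate 2, which lay only 1.13 times above the PBS mean. Without DOX replicate 3 the ratio of DOX to PBS means fell from 3.77 to 1.74. As a share of all counts, the 40 genes took up 0.511% in DOX replicate 3 and between 0.0584% and 0.141% in the other libraries. More hepatocytes in a preparation and more of these transcripts per hepatocyte cannot be told apart in such bulk libraries.

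**Figure D1:**
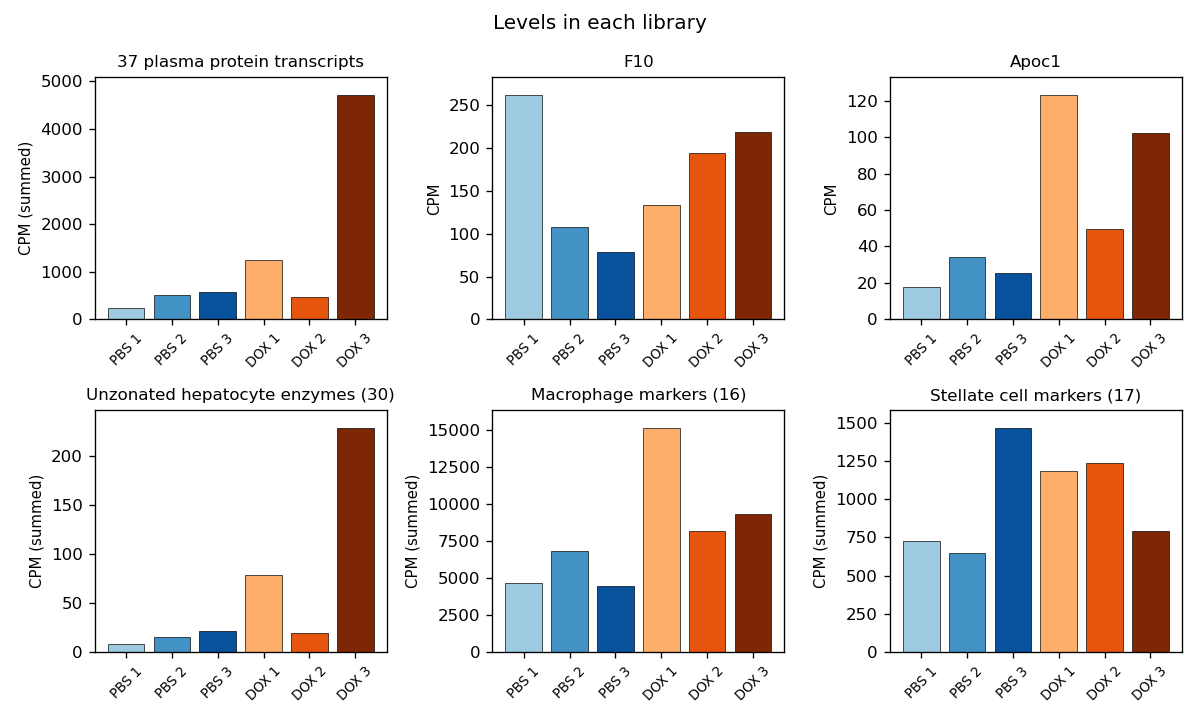
Bars give the level in each of the 6 libraries in CPM, from 0, summed over the genes of a list or for a single gene. The 37 plasma protein transcripts reached 4713 CPM in DOX replicate 3 against 468 CPM in DOX replicate 2, while F10 was highest in PBS replicate 1 and Apoc1 and the macrophage markers were highest in DOX replicate 1.

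The same order of libraries recurred from gene to gene. DOX replicate 3 was the highest library for 37 of the 40 genes (92.5%, against 16.5% of all 14439 genes tested), with DOX replicate 1 next for 34 of them. PBS replicate 1 was the lowest for 35 genes (87.5%, against 17.1% of all genes tested). DOX replicate 2 was the lowest DOX library for 39 genes. The level of a gene in DOX replicate 3 was a median of 10.5 times its PBS mean, and in DOX replicate 1 a median of 3.44 times. In DOX replicate 2 the median was 1.10 times, with a range from 0.447 to 3.74. The median over all genes tested was between 0.981 and 0.994 times in the DOX libraries. Not highest in DOX replicate 3 were F7 and F10, which were highest in PBS replicate 1, and Apoc1, which was highest in DOX replicate 1. A PBS library came second for Apoa4, Itih2 and Rbp4, and the lowest library was PBS replicate 2 for Apoa5 and Hrg and PBS replicate 3 for C9, F7 and F10. Apoc1, F7 and F10 are described apart from the other 37, a division made after their values were seen.

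Few of the 40 genes passed the test between groups. Apoc1 and Hrg rose in DOX and no member fell, 2 of 40 (5%), with an adjusted p under 0.05 in the quasi-likelihood test of edgeR over all genes. In the same test 6.41% of all genes were called, 4.38% higher and 2.04% lower, so the share among the plasma protein genes was near the background. The log2 fold change was positive for 39 of the 40 genes (48.6% of all genes tested) and at least 2 for 28 of them (2.66% of all genes). Its median was 2.36, against -0.01 over all genes tested. Without DOX replicate 3 the median was 1.23, and 3 genes were at 2 or more. An unadjusted p under 0.05 was reached by 33 of the 40, all higher in DOX, against 15.9% of all genes tested. The 31 of these that were not called had edgeR adjusted p between 0.0511 and 0.166. DESeq2 called 24 of the 40, all higher, where it called 18.4% of all genes and 11.6% higher. Limma-voom called Apoc1 alone, where it called 5.97% of all genes and 4.02% higher. The genes share their libraries and rise and fall together in them, so these counts are not 40 separate observations.

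All DOX libraries lay above all PBS libraries for 13 of the 40 genes (32.5%), where 16.9% of all genes tested did so, and none of the 40 had all DOX libraries below PBS (17.7% of all genes tested). The 13 were Apoc1, Hpx, Fetub, Fga, Fgb, Fgg, Proc, Kng1, Hrg, Itih3, Itih4, C8a and Vtn. For the other 27 (67.5%, against 69.1% of all genes tested) DOX replicate 2 did not exceed the highest PBS library. All 40 genes passed the filter on low counts, 6 of them (Apoa5, Apoc4, Proc, C8a, C9 and Hrg) without reaching its level in all 3 PBS libraries, and Hrg in none. Those 6 could pass only with the help of the group in which they are high.

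**Figure D2:**
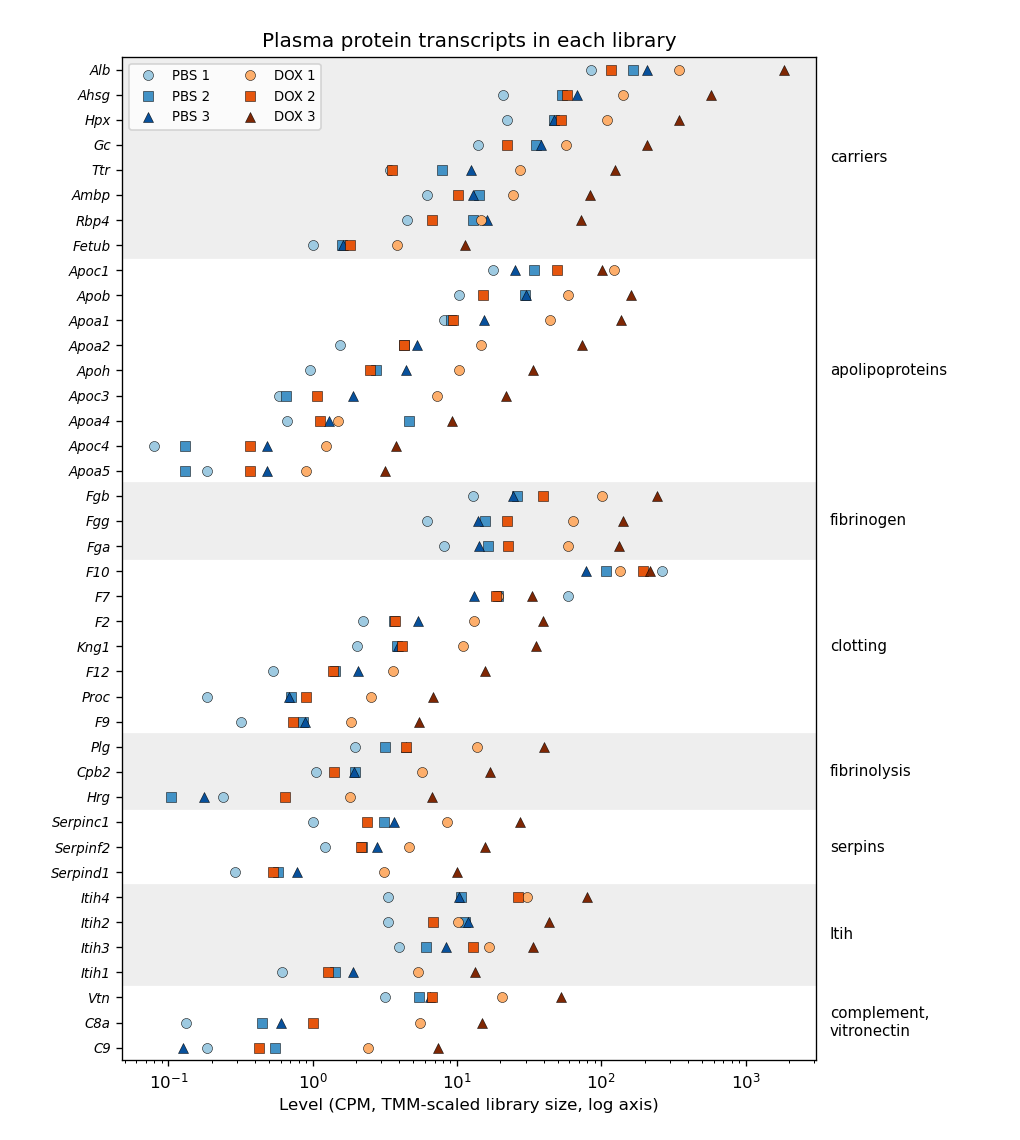
Each row is a gene, grouped by role, and each symbol is its level in a library in CPM on a log axis (blue for PBS, orange to brown for DOX). DOX replicate 3 is the rightmost symbol in 37 rows, and DOX replicate 2 lies among the PBS symbols in most rows.

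Promoter sequence was available for 34 of the 40 genes, as 38 windows of 300 bases in the RefSeq annotation of GRCm38.p6, each from 250 bases before a gene's start to 50 after it. They were searched on both strands for short motifs of factors that drive hepatocyte transcription and for the TATA box, a general promoter element. The FOXA motif TGTTTAC was in 10.5% of the windows (3.65% of all 32851 windows in that annotation), the TATA box TATAAA in 26.3% (13.6% of all) and the C/EBP motif TTGCNNCAA in 2.63% (2.08% of all). The HNF4 core CAAAGTCCA was in none (0.475% of all). No motif contains another. A match is only a run of letters in the window and says nothing of binding. The windows of Hrg (called higher in DOX), Itih4 (the lowest p among the genes not called) and F10 (which did not follow the other genes) are shown 5′ to 3′ on the strand of the gene, with TATA box matches in capitals. They lie at chr16:22950822-22951121, chr14:30886226-30886525 and chr8:13037058-13037357, all on the plus strand.

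Hrg: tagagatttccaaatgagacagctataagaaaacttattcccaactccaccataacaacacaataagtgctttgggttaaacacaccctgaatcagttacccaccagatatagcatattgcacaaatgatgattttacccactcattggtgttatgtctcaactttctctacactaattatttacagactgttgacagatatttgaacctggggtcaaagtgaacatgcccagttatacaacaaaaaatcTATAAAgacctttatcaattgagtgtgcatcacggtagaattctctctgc
Itih4: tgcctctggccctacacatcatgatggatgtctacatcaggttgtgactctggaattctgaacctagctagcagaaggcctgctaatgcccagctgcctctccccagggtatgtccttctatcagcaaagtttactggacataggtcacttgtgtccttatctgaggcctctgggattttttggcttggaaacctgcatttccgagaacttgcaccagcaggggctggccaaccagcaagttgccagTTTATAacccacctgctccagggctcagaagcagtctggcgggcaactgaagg
F10: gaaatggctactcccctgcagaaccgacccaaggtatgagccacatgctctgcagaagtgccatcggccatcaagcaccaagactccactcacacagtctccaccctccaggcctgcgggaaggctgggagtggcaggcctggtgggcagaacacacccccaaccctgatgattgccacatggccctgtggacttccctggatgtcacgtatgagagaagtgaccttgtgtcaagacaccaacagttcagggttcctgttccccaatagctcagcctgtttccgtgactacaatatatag

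In Hrg the capitals begin at the annotated start base itself, and in Itih4 they begin 3 bases before the start, as the reverse complement of the motif. None of these motifs occurs in the F10 window, nor in the window of F7, its neighbour. The same held for most of the 34 genes with a window, among them Apoa1, Ahsg and Hpx, which were highest in DOX replicate 3. The lack of a match thus does not set F10 and F7 apart.

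The carriers had the highest summed FPKM of the groups in all libraries but PBS replicate 1, where the clotting genes had 134 FPKM and the carriers 91.6 FPKM. Alb, which encodes albumin, the main protein of plasma, averaged 78.1 FPKM in PBS and 373 FPKM in DOX. It stood at 85.4, 166 and 209 CPM in PBS replicates 1, 2 and 3 and at 346, 116 and 1862 CPM in DOX replicates 1, 2 and 3. DOX replicate 2 was thus below 2 PBS libraries, and the groups overlapped. Alb had a difference of 2.34 on the log2 scale (SE 0.94), with an edgeR adjusted p of 0.158, and of 0.59 without DOX replicate 3. Ahsg, which encodes fetuin A, an inhibitor of mineral deposition, had 20.8, 53.9 and 68.2 CPM in PBS and 142, 57.8 and 573 CPM in DOX in replicate order. Its groups overlapped through the same DOX library (edgeR log2 fold change 2.44, SE 0.85, adjusted p = 0.117).

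The other carriers followed. Hpx, which encodes the heme scavenger hemopexin, had PBS levels of 22.1 to 47.2 CPM and DOX levels of 53.0 to 346 CPM, without overlap (edgeR adjusted p = 0.0993). Ttr, the carrier of thyroid hormone and of retinol binding protein, had 3.55 CPM in DOX replicate 2 and 125 CPM in DOX replicate 3, a 35.3-fold spread within the group and the widest of the 40 genes. Rbp4, the retinol carrier itself, had 4.51, 12.9 and 16.1 CPM in PBS and 14.7, 6.73 and 72.4 CPM in DOX. Only DOX replicate 3 exceeded the PBS range, and the difference of 1.48 on the log2 scale (SE 0.87, adjusted p = 0.307 by edgeR) became -0.06 without that library. Gc, which encodes the vitamin D binding protein, Ambp, the precursor of alpha-1-microglobulin and bikunin, and Fetub, a protease inhibitor, had log2 fold changes of 1.72, 1.84 and 2.01. No carrier was called by edgeR.

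The apolipoproteins package and steer lipids in lipoprotein particles. Apoa1, the main protein of high density lipoprotein, stood at 8.19, 9.05 and 15.4 CPM in PBS and at 43.9, 9.43 and 138 CPM in DOX (edgeR log2 fold change 2.55, SE 0.85, adjusted p = 0.108). DOX replicate 2 lay inside the PBS range. Apoa2, a further protein of high density lipoprotein, had a log2 fold change of 3.05, Apoc3, an inhibitor of lipoprotein clearance, of 3.27, and Apoc4 of 2.93. Apob, the scaffold of very low density lipoprotein, had 10.3 to 30.3 CPM in PBS and 58.9, 15.1 and 162 CPM in DOX. Apoh, a phospholipid-binding protein, and Apoa5, an activator of triglyceride breakdown, had log2 fold changes of 2.51 and 2.46. Apoa4 differed from its neighbours. Apoa1, Apoc3, Apoa4 and Apoa5 lie side by side within 43.3 kb of chromosome 9 (46228630 to 46271921, GRCm38), with no other protein-coding gene between them. Apoa4 had 0.663, 4.63 and 1.29 CPM in PBS and 1.49, 1.13 and 9.20 CPM in DOX. Its log2 difference was 0.85 (SE 0.98, adjusted p = 0.608 by edgeR), -0.74 without DOX replicate 3 and 2.01 without PBS replicate 2. PBS replicate 2 held 177 counts of Apoa4 against 25 and 51 in the other PBS libraries.

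Apoc1, a small apolipoprotein that inhibits lipid uptake and is known also from macrophages, was 1 of the 2 genes called. Its levels were 17.8, 34.2 and 25.2 CPM in PBS and 123, 49.5 and 102 CPM in DOX, without overlap. It rose 3.56-fold (edgeR log2 fold change 1.83, SE 0.37, adjusted p = 0.0383). Its DOX libraries did not follow the order of the other genes. Per 100 counts of Alb there were 35.5, 42.8 and 5.48 counts of Apoc1 in DOX replicates 1, 2 and 3. The macrophage markers had the same order as Apoc1 in all 3 DOX libraries, at 15099.9, 8166 and 9331 CPM. In PBS the orders differed. The macrophage sums were 4639.5, 6825 and 4443 CPM, lowest in PBS replicate 3, where Apoc1 was lowest in PBS replicate 1. Above PBS in every DOX library were 13 of the 16 markers, against 16.9% of all genes tested. Of these markers 3 passed the test (Itgam, C1qb and C1qc). The part of macrophage RNA in the Apoc1 result was not tested. Leaving out any library but DOX replicate 2 took the Apoc1 call away, with edgeR adjusted p between 0.0624 and 0.126, while its log2 fold change stayed between 1.57 and 2.09. Apoc1 lies beside Apoc4 within 14.6 kb of chromosome 7, and Apoc4, at 0.366 CPM in DOX replicate 2 and 3.77 CPM in DOX replicate 3, was highest in DOX replicate 3.

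Fibrinogen, the precursor of fibrin, is built from the chains encoded by Fga, Fgb and Fgg, which lie within 42.1 kb of chromosome 3 (83007724 to 83049863, GRCm38). Fgb had 13, 26.2 and 24.3 CPM in PBS and 100.5, 39.3 and 244 CPM in DOX. Fgg had 6.23, 15.7 and 13.9 CPM in PBS and 63.5, 22.2 and 142 CPM in DOX. All 3 chains were above the PBS range in every DOX library, DOX replicate 2 included. The log2 fold changes were 2.47 for Fga, 2.60 for Fgb and 2.67 for Fgg (SE 0.62, 0.64 and 0.67), and the edgeR adjusted p were 0.0592, 0.0573 and 0.0601, so none was called. The chains kept close proportions. There were between 54.3 and 62.6 counts of Fga per 100 of Fgb over the 6 libraries, and between 48.1 and 63.2 of Fgg.

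Among the clotting factors, F2 (prothrombin), F9, F12, Proc (protein C, an anticoagulant protease) and Kng1 (kininogen) were highest in DOX replicate 3 and next highest in DOX replicate 1, with log2 fold changes of 1.95 to 2.70 and edgeR adjusted p between 0.0877 and 0.147. F10 and F7, which encode the clotting factors X and VII, did not. They lie next to each other within 31.2 kb of chromosome 8 (13025506 to 13056676, GRCm38), and both are known also from macrophages. F10 had 262, 108 and 78.6 CPM in PBS and 134, 194 and 219 CPM in DOX. F7 had 58.5, 19.4 and 13.2 CPM in PBS and 19.2, 18.7 and 33.0 CPM in DOX. PBS replicate 1, the library with the least Alb, was the highest for both. By edgeR the log2 fold changes were 0.29 for F10 (SE 0.44, adjusted p = 0.704) and -0.36 for F7 (SE 0.55, adjusted p = 0.703). Without PBS replicate 1 the value for F7 was 0.53, and without PBS replicate 3 that for F10 was -0.02. Per length F10 was the clotting gene with the highest mean, at 57.5 FPKM in PBS and 65.3 FPKM in DOX, where F2 had 1.59 and 7.45 FPKM. The macrophage markers as a whole were not high in PBS replicate 1 (4639.5 CPM, against 6825 and 4443 CPM in PBS replicates 2 and 3). Fcgr1, a receptor gene of that list, had 126, 49.6 and 44.0 CPM in PBS replicates 1, 2 and 3, and Clec4f, a gene of resident liver macrophages, 74.7, 289 and 224 CPM. Both were named after their values were seen, and their part in the F7 and F10 levels was not tested.

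The genes of fibrinolysis and of the coagulation inhibitors were less abundant. Plg, which encodes plasminogen, the protease that dissolves fibrin, had 74, 122 and 177 counts in PBS and 472, 158 and 1466 counts in DOX (edgeR log2 fold change 2.60, SE 0.76, adjusted p = 0.0825). At 4.45 CPM, DOX replicate 2 lay just short of PBS replicate 3 at 4.47 CPM. Cpb2, an inhibitor of fibrinolysis, had 1.06 to 1.96 CPM in PBS and 5.71, 1.41 and 17 CPM in DOX (edgeR adjusted p = 0.122). Hrg, a histidine-rich glycoprotein that binds plasminogen and heparin, was the second gene called. It had 9, 4 and 7 counts in PBS replicates 1, 2 and 3 and 62, 23 and 247 counts in DOX replicates 1, 2 and 3, so the groups did not overlap. It rose 17.4-fold (edgeR log2 fold change 4.12, SE 0.93, adjusted p = 0.0484). The call rests on few reads and was lost when any library except DOX replicate 2 was left out (edgeR adjusted p between 0.05 and 0.149), and the value fell to 2.80 on the log2 scale when DOX replicate 3 was left out. Serpinc1, which encodes antithrombin, had 1.01, 3.11 and 3.66 CPM in PBS and 8.49, 2.39 and 27.2 CPM in DOX. Serpinf2, the inhibitor of plasmin, had 1.22, 2.20 and 2.78 CPM in PBS and 4.68, 2.17 and 15.7 CPM in DOX. DOX replicate 2 lay inside the PBS range for both and also for Serpind1 (heparin cofactor II), whose log2 fold change was 3.04.

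The inter-alpha-trypsin inhibitor heavy chains, which bind hyaluronan and stabilise matrix, differed in where DOX replicate 2 stood. Itih4 had 3.31, 10.7 and 10.4 CPM in PBS and 30.6, 26.6 and 80.0 CPM in DOX (edgeR log2 fold change 2.49, SE 0.58, adjusted p = 0.0511), the lowest p among the members that were not called. Itih3 had 3.98, 6.07 and 8.44 CPM in PBS and 16.6, 12.9 and 33.5 CPM in DOX (edgeR log2 fold change 1.77, SE 0.42, adjusted p = 0.0530). DOX replicate 2 was 3.27 times the PBS mean for Itih4 and 2.09 times for Itih3, where it was 0.754 times for Alb. Itih2 had 3.31, 11.4 and 11.9 CPM in PBS and 10.2, 6.84 and 43.7 CPM in DOX, and only DOX replicate 3 exceeded PBS (edgeR log2 fold change 1.19, SE 0.77, adjusted p = 0.352, and -0.06 without that library). Itih1 had a log2 fold change of 2.34. Itih1, Itih3 and Itih4 lie within 56.8 kb of chromosome 14 (30886476 to 30943289, GRCm38).

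C8a and C9 encode parts of the membrane attack complex of complement, and Vtn encodes vitronectin, an adhesive plasma protein that restrains that complex. C8a had 5, 17 and 24 counts in PBS and 190, 36 and 551 counts in DOX, without overlap. By edgeR its log2 fold change of 4.17 was the highest of the 40 genes (SE 1.01, adjusted p = 0.0552). C9 had 7, 21 and 5 counts in PBS and 83, 15 and 272 counts in DOX, and DOX replicate 2 lay inside the PBS range (edgeR adjusted p = 0.0849). Vtn, which stellate cells are also known to make, had 3.15, 5.44 and 6.52 CPM in PBS and 20.4, 6.70 and 52.8 CPM in DOX (edgeR log2 fold change 2.40, SE 0.70, adjusted p = 0.0824). Vtn was highest in DOX replicate 3, and the summed stellate cell markers in PBS replicate 3. The part of stellate cell RNA in the Vtn level was not tested.

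**Figure D3:**
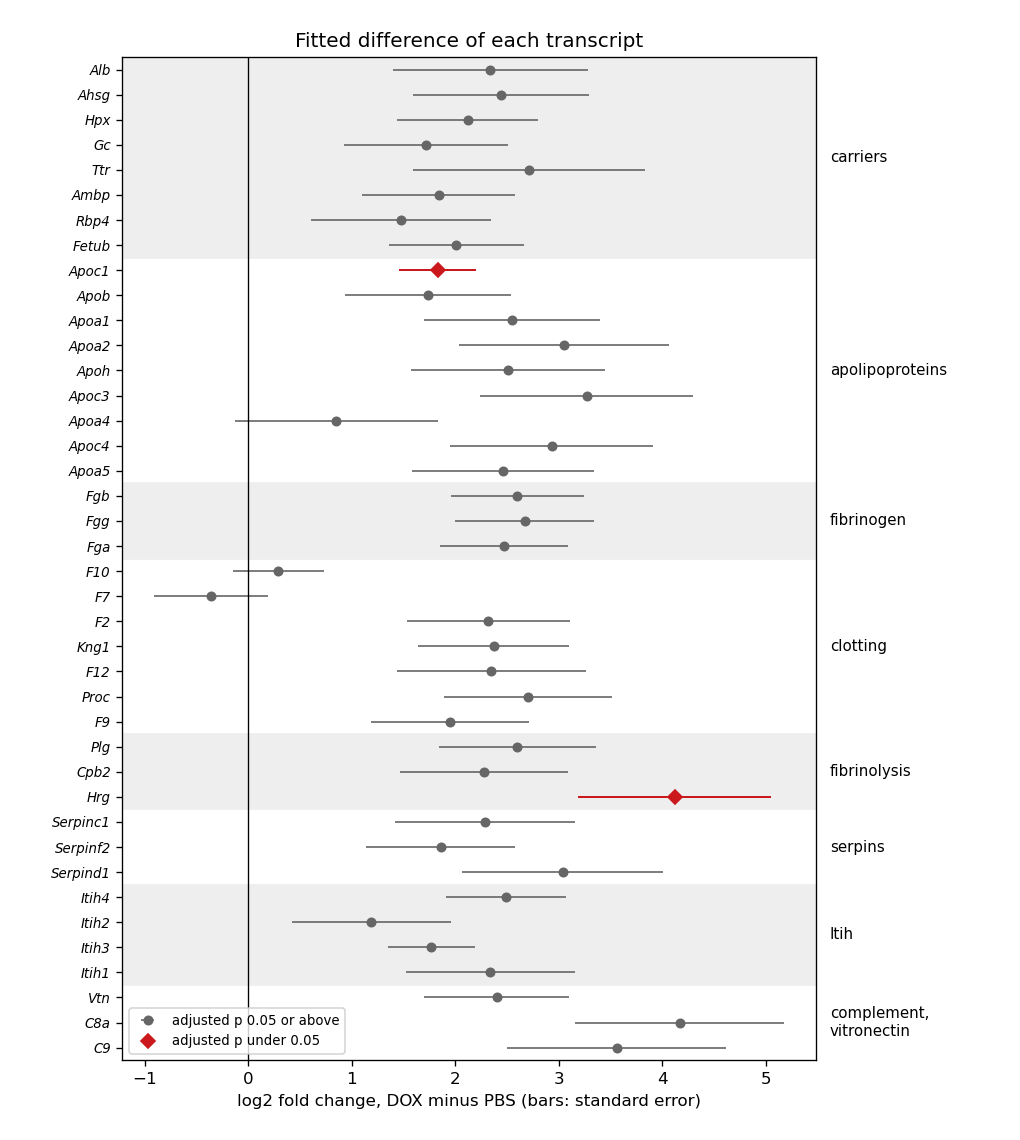
Points give the log2 fold change of DOX against PBS for each gene from the edgeR fit over all genes, and bars its standard error. Apoc1 and Hrg, drawn as diamonds, passed an adjusted p of 0.05, while F7 and F10 lie near 0 and most others between 1.5 and 3.

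Taking the counts of the 37 genes as a whole removed most of the spread between libraries. A gene's highest library was a median of 20.4 times its lowest in CPM, but 1.97 times when expressed per 100 counts of the 37 genes. Across the 37 genes, log2 FPKM correlated between libraries with Pearson's r from 0.913 to 0.987 (15 pairs of libraries, a description across genes that share libraries and lengths). The 37 leave out Apoc1, F7 and F10, set apart after their values were seen. Close proportions among the rest are in part built in by that choice. Alb took 36.6, 32.8 and 35.7 of every 100 counts in PBS and 27.8, 24.8 and 39.5 in DOX. The shares of 29 genes overlapped between groups. Apoa2, Plg, Proc, C8a and Hrg had larger shares in every DOX library than in any PBS library, and Gc, Ambp and Rbp4 smaller ones. The set depended on the divisor. Per 100 counts of Alb, Apoa2, Apoc3, Serpind1, C8a, C9 and Hrg were above without overlap and 0 genes below. Only Apoa2, C8a and Hrg were thus above on both scales. Of the genes above on either scale, Proc, C8a, C9 and Hrg passed the filter on low counts only with the help of the DOX group, where they are high. On the scale of the 37 genes, 0.229% of all genes tested lay above without overlap and 17.9% below. The sum of the 37 genes, the divisor, was itself 4.86 times higher in mean CPM in DOX. A gene of unchanged level therefore has a smaller share in DOX, and the 0.229% is no yardstick for the 37 genes. The shares of the 37 genes add up to a fixed total, so they are not independent of each other. Rbp4 took 2.41 ± 0.428 of every 100 counts in PBS and 1.38 ± 0.187 in DOX, and Gc 6.49 ± 0.463 and 4.58 ± 0.159 (SD, n = 3 each). C8a took 0.0828 ± 0.0239 in PBS and 0.327 ± 0.115 in DOX. These shares were not tested, and with 3 libraries against 3 an exact permutation test could not have gone below p = 0.10.

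Fibrinogen stood higher against Alb in 2 DOX libraries but not in the third. Per 100 counts of Alb, the 3 fibrinogen chains together had 32.0, 35.0 and 25.2 counts in PBS and 64.5, 72.7 and 27.9 counts in DOX replicates 1, 2 and 3. Itih3 and Itih4 together had 8.54, 10.1 and 9.01 counts per 100 of Alb in PBS and 13.6, 34.1 and 6.10 in DOX. Per 100 counts of 6 negative acute-phase genes (Alb, Ttr, Ahsg, Rbp4, Apoa1 and Serpinc1), 7 positive ones (the fibrinogen chains, Hpx, Itih3, Itih4 and C9) had 46.2, 48.5 and 36.6 counts in PBS and 65.5, 90.5 and 35.3 counts in DOX. DOX replicate 3, which had by far the most of both kinds, was inside the PBS range for fibrinogen and below it for the other ratios. DOX replicate 2, which had the least Alb of the DOX libraries, was the highest in all 3 ratios. None of these ratios was tested. Bche per 100 counts of the 37 genes stood at 0.0910, 0.134 and 0.0606 in PBS and at 2.87, 3.50 and 2.11 in DOX, so that all DOX libraries were above PBS on this scale too.

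**Figure D4:**
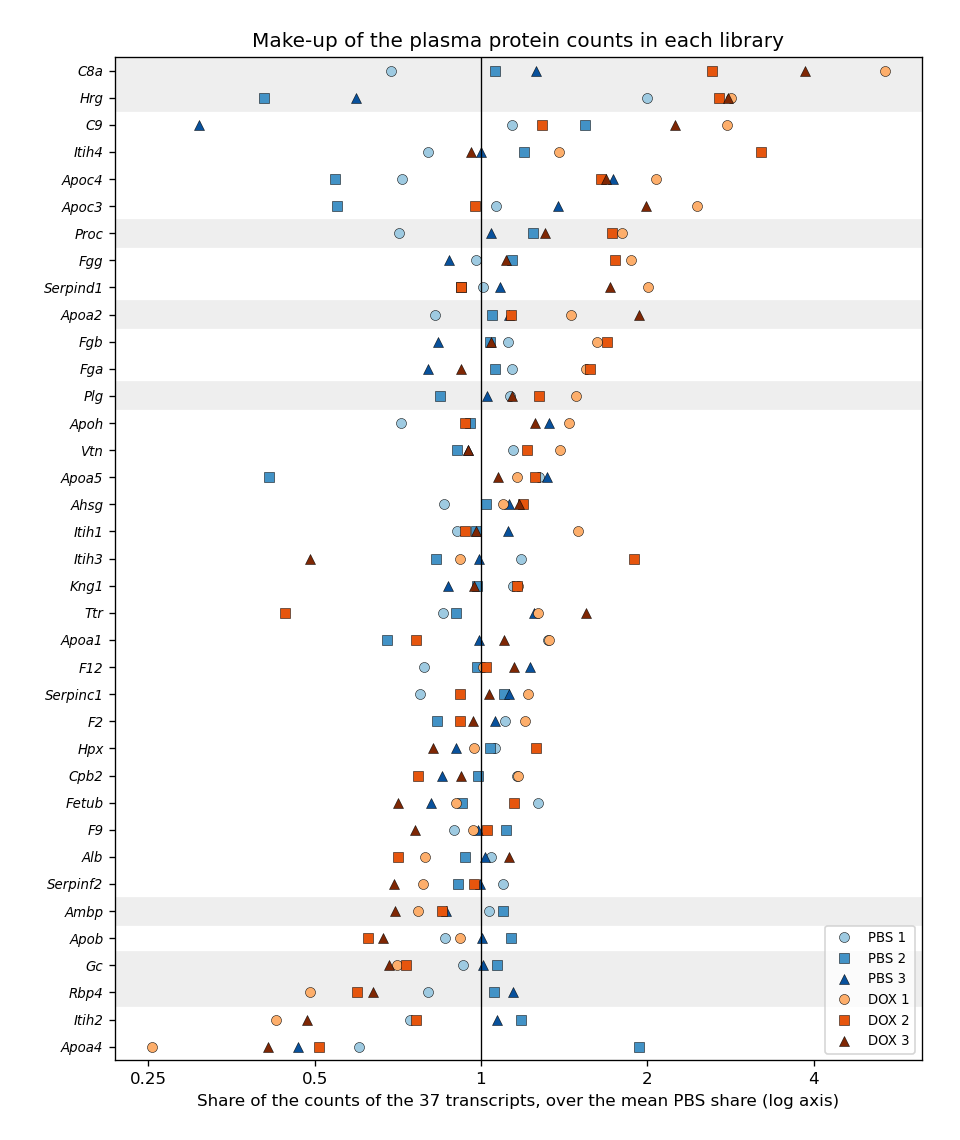
Each symbol is a gene's share of the counts of the 37 genes in a library, divided by its mean share in PBS, on a log axis; grey rows mark the 8 genes whose groups do not overlap. Most symbols lie between 0.5 and 2, C8a and Hrg lie to the right in all DOX libraries, and Rbp4, Gc and Ambp to the left. C8a and Hrg passed the filter on low counts only with the help of the DOX group.

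DOX replicate 3 was also the highest library for most other hepatocyte genes tested, outside the transcription factors. Of 42 tested genes for other secreted hepatocyte proteins, 40 were highest in DOX replicate 3, and 2 rose by edgeR, Hp (haptoglobin, a hemoglobin scavenger, 1.72 on the log2 scale, edgeR adjusted p = 0.0362) and Apon (3.11, edgeR adjusted p = 0.0352). Serping1 and Cp, with Hp the most abundant of the genes counted in that list, had log2 fold changes of 0.23 and 1.21 and were not called. Of 22 tested enzymes without known zonation, such as Adh1, Uox and Cyp3a11, all 22 were highest in DOX replicate 3 and 4 rose (Aldh1l1, Kmo, Haao and Urah). Haao had 5, 3 and 3 counts in PBS replicates 1, 2 and 3, and Apon 8, 5 and 7. Both could pass the filter on low counts only with the help of the DOX group, where they are high. Of 16 tested pericentral enzymes 1 rose (Aldh1b1) and of 7 tested periportal enzymes 0, with 6 of these 7 at an unadjusted p under 0.05. Over all genes tested by edgeR, 16.5% were highest in DOX replicate 3, 4.38% were called higher and 28.7% had an unadjusted p under 0.05. The 2 calls among the 42 secreted protein genes were near that share. Cyp2e1, a pericentral enzyme that activates CCl4, had 0.838, 1.76 and 2.89 per 100 of Alb in PBS and 7.48, 3.33 and 3.06 in DOX. Per 100 counts of the 37 genes it had 0.307, 0.578 and 1.03 in PBS and 2.08, 0.825 and 1.21 in DOX, so the groups overlapped on that scale. Cyp2e1 was named after its values were seen.

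Transcription factors of the hepatocyte list had differences of both signs. Hnf4a, which activates many of the plasma protein genes, had 11, 26 and 37 counts in PBS and 69, 44 and 215 counts in DOX (edgeR log2 fold change 2.25, SE 0.68, adjusted p = 0.0889). Foxa1, whose family motif was searched above, was too low to be tested, with 51 counts in DOX replicate 3 and between 3 and 16 in the other libraries. Nr2f6, Cebpa and Nr5a2, the most abundant of that list, had log2 fold changes of -0.27, -0.18 and -0.18. None of the 11 tested factors was called by edgeR (5 had an unadjusted p under 0.05, as did 28.7% of all genes tested). The median log2 fold change of that list was -0.18. Of 9648 genes in no list with at least 5 CPM on average and a gene name, the 10 most like the summed plasma protein level over the 6 libraries (Pearson's r of log2 CPM between 0.978 and 0.991, a description) were Tmem205, Gstz1, Ndrg2, Nenf, Igfbp1, Tmco6, H2-Q10, Nat8f2, Gsta3 and Trf. Trf, which encodes transferrin, the iron carrier, was the most abundant of them, with 139, 235 and 233 CPM in PBS and 412, 217 and 972 CPM in DOX. Transferrin is a secreted hepatocyte protein. The list of those proteins names it by the symbol Tf, so Trf was not counted there and came up here as an unlisted gene.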

How the data were processed

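RNA of 6 samples was sequenced, and per the labels' protocols the libraries were made from total RNA with a SMARTER kit for mRNA. The authors deposited raw counts for 22905 gene symbols, and FPKM values that equal those counts scaled by gene length and library total (relative tolerance 0.0001, 100% of genes). How reads were aligned, counted and split between paralogs (such as Kng1 and Kng2), is not given in the sources used here. The submitters' processing notes list mouse builds (GRCm38 and mm10) and a human build (hg38) without saying what each was used for. A further motif and a gene are not reported here.

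Groups came from sample titles. The test was edgeR 4.0.16 quasi-likelihood (R 4.3.3) on all 6 libraries with group as the only term, TMM factors and filterByExpr (minimum count 10), which left 14439 genes. It was two-sided, with Benjamini-Hochberg adjustment over all genes and a threshold of 0.05, and was tested on simulated data. The SE was derived from the F statistic. Replicates differed by more than counting noise (chi-square per degree of freedom at least 38.6), so none was the same library deposited again. Alternatives were other scalings, filters, DESeq2 1.42.0, limma 3.58.1 (voom, or log2(FPKM + 1) and log2(FPKM + 0.1)), a replicate block and leaving out each library. Positions and promoters are RefSeq's for GRCm38.p6.

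The 40 genes and the lists were chosen with earlier results of these data known. Values per library were given for called genes and the 2 genes of each role with the highest mean FPKM. They were also given for other members that a result turns on, for Bche, and for up to 3 genes of each other list with the highest mean CPM. Genes named beyond this rule were chosen after their values were seen.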

Additional observations from a re-analysis of the deposited data

How the results depend on the processing

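The summed level kept its direction in all settings tried. Its log2 ratio of 1.92 ranged from 0.80 (without DOX replicate 3) to 2.35 when 1 library was dropped. Of 701 values of the 40 genes over 18 settings, 5 changed sign, each with 1 library left out. The log2 fold changes then ranged from -0.74 (without DOX replicate 3) to 2.01 for Apoa4, from -0.06 (without DOX replicate 3) to 1.60 for Itih2, from -0.06 (without DOX replicate 3) to 1.96 for Rbp4, from -0.72 to 0.53 (without PBS replicate 1) for F7 and from -0.02 (without PBS replicate 3) to 0.97 for F10. The number of the 40 genes called was 2, and 8 without a low-count filter (4.94% of all genes called), 24 with DESeq2 (18.4% of all genes called), 1 with limma-voom (5.97%), 1 with the robust fit, and 0 with limma on log2(FPKM + 1) or log2(FPKM + 0.1), where 9 and 13 had an unadjusted p under 0.05. Dropping 1 library gave 0 to 12, 12 without DOX replicate 2 (2.95% of all genes called) and 0 without any other (14 to 32 at an unadjusted p under 0.05), where 0% to 7.42% of all genes were called. Calls over all genes numbered 926, 2658 with DESeq2 and 0 to 1090 with each library left out, 0 without PBS replicate 2 or 3. With library totals alone, which shift the median of all genes from -0.01 to -0.14, 611 were higher and 730 lower in place of 632 and 294. Limma on log2(FPKM + 1) called 423 higher and 402 lower, and on log2(FPKM + 0.1) 494 and 464. The other hepatocyte lists had 7 calls among 97 tested genes, and 16 of 131 without a filter, 4 of 28 at 5 CPM in 3 libraries, 55 with DESeq2, 4 with limma-voom, 2 with log2(FPKM + 1), 4 with log2(FPKM + 0.1) and 0 to 23 of 97 to 110 with each library left out. The cause of these moves was not tested.

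Same-numbered PBS and DOX libraries shared only a number (correlations of their deviations 0.0939, -0.106 and 0.216, and 1 of 3 PBS libraries correlated best with its own number). With the replicate block 5 of the 40 genes were called (Apoa5, Apoc4, Itih3, Itih4 and Hrg), as were 781 genes in all, 622 higher and 159 lower. Members with under 10 counts in PBS libraries, such as Hrg, are limited by depth.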
